A study of Homo sapiens with 20 samples.

Results

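The genes described here are the sensors of endoplasmic reticulum (ER) stress and the factors of the CREB3 family. They are ERN1, EIF2AK3, ATF6, XBP1, CREB3, CREB3L1, CREB3L2 and CREB3L4, 8 of the 19775 genes measured. They were chosen by symbol, as the genes to which a probe set was annotated alone, and each is represented by the brightest of its probe sets, by the mean of the 20 arrays. The remaining probe sets served as a check, 18 being read for the 8 genes in all. Levels are given as log2 intensity of the deposited array values.

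The study measured mRNA with Affymetrix 3′ arrays in 2 human prostate cancer lines, LNCaP, which is androgen-responsive, and its castration-resistant derivative C42B. The first experiment compared C42B cells given siRNA against LSD1 (siLSD1), the histone demethylase encoded by KDM1A, with C42B cells given the siRNA labelled siNTC, 3 arrays each, after 6 h of transfection and 96 h in RPMI with 10% CSS, a charcoal-stripped serum from which steroids have been removed. In the androgen experiment C42B cells that had spent 72 h in CSS received 100 nM dihydrotestosterone (DHT) for 16 h and were compared with ethanol-treated cells (Veh+), 4 arrays each. The LNCaP experiment compared siLSD1 with siNTC, 3 arrays each, after transfection at 50 nM and 96 h in 10% fetal bovine serum. Both siRNA groups of C42B were thus without added androgen, and both of LNCaP had the steroids of full serum. The C42B replicates were separate wells and each LNCaP replicate pooled 2 wells. Whether wells were independent cultures is not stated for C42B, so the p-values may reflect technical spread between these arrays only. Each line is 1 established culture, and the sources used here give no siRNA sequences.

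When unfolded proteins build up in the ER, 3 membrane proteins signal to the nucleus. IRE1, encoded by ERN1, cuts XBP1 mRNA so that a potent transcription factor is made. PERK, encoded by EIF2AK3, phosphorylates the initiation factor eIF2, which slows translation and favours ATF4. ATF6 travels to the Golgi, where site-1 and site-2 proteases release its transcription factor part. The CREB3 family shares that membrane anchoring and cleavage, and in secretory cells its members raise genes of protein transport. CREB3L4, also called AIbZIP, is known as an androgen-induced factor of the prostate. The arrays measured mRNA levels, and neither cleavage, phosphorylation nor XBP1 splicing was measured.

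The promoters of the 5 genes on which the results below turn are shown so that the letters can be read beside the values. They are ERN1, EIF2AK3, CREB3L4 and CREB3L2, which had the largest changes with DHT among the 8 genes, and XBP1, whose level did not pass in that experiment. Each sequence is the 250 bases before the RefSeq start in build GRCh38.p14, read 5′ to 3′ on the gene's strand. Capitals mark the ER stress element (CCAAT and CCACG 9 bases apart) in XBP1, the cAMP response element TGACGTCA in CREB3L2 and CCAAT boxes in ERN1 and EIF2AK3, where an inverted box reads ATTGG. Further CCAAT boxes in XBP1 and CREB3L2 are left in lower case.
ERN1 at chr17:64130145-64130394 (minus strand): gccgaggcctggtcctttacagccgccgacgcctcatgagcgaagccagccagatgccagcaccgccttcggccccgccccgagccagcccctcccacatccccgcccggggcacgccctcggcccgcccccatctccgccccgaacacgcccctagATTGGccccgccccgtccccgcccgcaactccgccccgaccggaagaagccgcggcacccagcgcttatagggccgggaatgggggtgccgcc
EIF2AK3 at chr2:88627465-88627714 (minus strand): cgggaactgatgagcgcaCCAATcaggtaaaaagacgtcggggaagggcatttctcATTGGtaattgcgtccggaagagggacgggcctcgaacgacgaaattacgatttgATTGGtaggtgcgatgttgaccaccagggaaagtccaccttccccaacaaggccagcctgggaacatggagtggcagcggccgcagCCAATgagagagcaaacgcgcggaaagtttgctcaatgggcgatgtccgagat
CREB3L4 at chr1:153968000-153968249 (plus strand): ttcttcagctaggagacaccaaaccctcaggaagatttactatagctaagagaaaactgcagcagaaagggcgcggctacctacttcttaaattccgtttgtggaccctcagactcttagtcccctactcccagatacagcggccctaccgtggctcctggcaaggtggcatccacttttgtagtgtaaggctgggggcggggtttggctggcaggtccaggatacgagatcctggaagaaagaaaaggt
CREB3L2 at chr7:138002087-138002336 (minus strand): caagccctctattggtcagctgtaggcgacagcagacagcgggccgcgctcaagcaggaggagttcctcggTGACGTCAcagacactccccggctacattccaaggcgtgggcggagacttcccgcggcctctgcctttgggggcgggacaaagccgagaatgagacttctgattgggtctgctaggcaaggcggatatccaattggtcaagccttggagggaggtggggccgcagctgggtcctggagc
XBP1 at chr22:28800570-28800819 (minus strand): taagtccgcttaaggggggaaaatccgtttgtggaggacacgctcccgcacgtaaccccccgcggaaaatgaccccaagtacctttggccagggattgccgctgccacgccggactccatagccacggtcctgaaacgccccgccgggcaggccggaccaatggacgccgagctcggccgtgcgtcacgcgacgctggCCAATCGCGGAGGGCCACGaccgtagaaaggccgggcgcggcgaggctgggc
Motifs were searched on both strands in 35116 such windows, and a match describes letters, not binding. The ER stress element lay at bases -52 to -34 of XBP1, was found in 26 windows (0.074%), and was found in no other member. Its first 5 letters are themselves a CCAAT box, a motif present in 32.0% of windows. EIF2AK3 and the printed window of CREB3L2 each held 4 CCAAT boxes, and 0.874% of windows held at least as many. In CREB3L2 the boxes at bases -51 to -47 and -48 to -44 overlapped, read on opposite strands, and were counted separately. XBP1 held a second box at bases -93 to -89. The cAMP response element of CREB3L2 lay at bases -179 to -172, and 1.65% of windows held one. The window of CREB3L4 held none of the 8 motifs searched. The androgen response element, AGAACA and its inverted copy TGTTCT 3 bases apart, occurred in 1 of all windows and in no member. An exact match is so rare here that its absence tells little, and inexact or more distant sites were not searched. Among the members a lone AGAACA or TGTTCT, present in 12.4% of windows, occurred only at a second start of CREB3L2. The ATF4 composite core TGATGNAA (3.14% of windows), the unfolded protein response core TGACGTG (1.68%) and the second ER stress element (ATTGG and CCACG 1 base apart, 0.0513%) were in no member.

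KDM1A was checked first. It read 8.03, 7.83 and 7.80 with siLSD1 in C42B, against 10.29, 10.36 and 10.21 with siNTC, and 7.26, 7.40 and 7.25 with siLSD1 in LNCaP, against 9.95, 10.05 and 10.23 with siNTC. It fell by 2.40 ± 0.08 in C42B and fell by 2.78 ± 0.08 in LNCaP on the log2 scale (SE; limma, adjusted p = 1.2e-05 and 2.4e-06). Array medians were 63.3 to 86.1 and separated by experiment, so levels below are compared only within an experiment. All 7 luminal prostate markers measured were bright in every group, at means of 7.6 to 14.1. Group means were 4.3 to 6.5 for the basal markers KRT5 and KRT14 and 3.5 to 7.7 for 6 markers of stroma, endothelium and leukocytes, of which PECAM1 and VWF lay above 6 throughout. With DHT 7 of 7 luminal and 1 of 2 basal markers passed, and 0 of the 6 others did. The luminal markers went both ways. HOXB13 (11.06, against 11.55 with Veh+) and FOLH1 (9.29, against 9.83) were lower, and KLK3, KLK2, TMPRSS2, KRT8 and KRT18 higher. Of all genes, 13.4% passed higher with DHT and 19.4% lower. The part of these markers in the results was not tested.

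With DHT 5 of the 8 genes rose in C42B and none fell. They were ERN1, CREB3L4, EIF2AK3, CREB3L2 and CREB3, and ATF6, XBP1 and CREB3L1 did not pass. Over all genes 13.4% passed higher and 19.4% lower. The median change was 0.45 over the 8 genes and 0.01 over all genes. Passing means that limma's p, adjusted by Benjamini-Hochberg over the 19775 genes, was under 0.05. In bulk RNA a change in the share of cells with a transcript and a change per cell cannot be told apart.

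With siLSD1 4 of the 8 genes rose in C42B, ERN1, EIF2AK3, XBP1 and CREB3L4, and none fell, against a background of 8.66% of genes higher and 9.39% lower. The median over the 8 genes was 0.20. In LNCaP 5 rose with siLSD1, ERN1, EIF2AK3, XBP1, CREB3L2 and CREB3L4, and ATF6 fell, where 13.4% of all genes passed higher and 12.5% lower. The median there was 0.22. Most of the LNCaP calls depended on single arrays: without siNTC replicate 2 only 1 gene, EIF2AK3, passed higher and none lower.

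**Figure D1:**
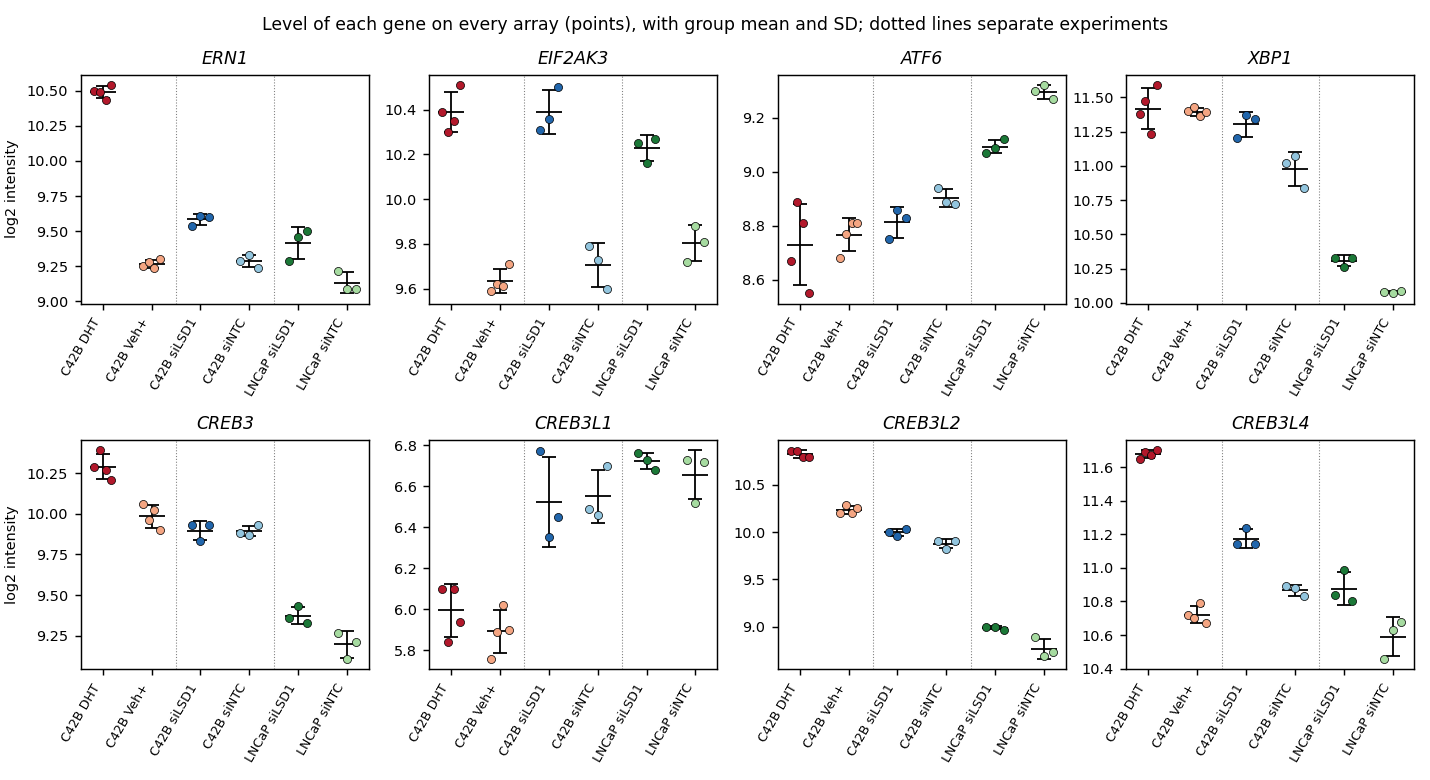
Log2 intensity (vertical axis, a scale of its own per gene) of the brightest probe set of each of the 8 genes on all 20 arrays, with the group mean and SD; dotted lines separate the experiments, between which levels are not comparable. The DHT arrays of ERN1 lie at 10.43 to 10.54, against 9.24 to 9.30 with Veh+, while those of XBP1 spread over 11.23 to 11.59 around the Veh+ arrays.

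ERN1, the gene of IRE1, changed most of the 8 with DHT. It read 10.50, 10.49, 10.43 and 10.54 in the DHT arrays, against 9.25, 9.28, 9.24 and 9.30 in the Veh+ arrays. Every DHT array stood more than 1 log2 unit above every Veh+ array. The change was 1.22 ± 0.04, or 2.33-fold (limma, adjusted p = 2.9e-08), and 1.54% of all genes moved at least as far in either direction. With siLSD1 in C42B ERN1 read 9.54, 9.61 and 9.60, against 9.29, 9.33 and 9.24 with siNTC. The groups were apart by a smaller step, 0.29 ± 0.05 (adjusted p = 0.0075), but the mean of its 3 probe sets gave 0.09 and did not pass (adjusted p = 0.28). In LNCaP the levels were 9.29, 9.46 and 9.50 with siLSD1, against 9.22, 9.09 and 9.09 with siNTC. The rise of 0.29 ± 0.07 (adjusted p = 0.024) did not pass without siLSD1 replicate 2 or 3 or siNTC replicate 2 or 3, where the adjusted p was 0.074 to 0.092.

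EIF2AK3, the gene of PERK, rose in all 3 experiments. Its levels were 10.39, 10.30, 10.35 and 10.51 with DHT, against 9.59, 9.62, 9.61 and 9.71 with Veh+. That is a change of 0.75 ± 0.05 (1.69-fold; limma, adjusted p = 5.3e-06). In C42B it read 10.31, 10.36 and 10.50 with siLSD1, against 9.79, 9.73 and 9.60 with siNTC. There the lowest siLSD1 array stood clear of the highest siNTC array, and the change was 0.68 ± 0.07 (1.61-fold, adjusted p = 0.0013). The 6 LNCaP values were 10.25, 10.16 and 10.27 with siLSD1, against 9.72, 9.88 and 9.81 with siNTC, again without overlap. The LNCaP rise was 0.42 ± 0.06 (1.34-fold, adjusted p = 0.0019). It passed in both siRNA experiments under each of the 12 alternatives that use all its probe sets or the brightest, and the change shrank to 0.37 in C42B, 0.27 in LNCaP and 0.40 with DHT where its dim second probe set was averaged in.

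ATF6, the sensor that is itself a cleaved transcription factor, had lower levels with siLSD1 in LNCaP. It read 9.07, 9.09 and 9.12 with siLSD1, against 9.30, 9.32 and 9.27 with siNTC. The replicates of each group lay within 0.05 of each other and the groups were apart, by -0.20 ± 0.05 (limma, adjusted p = 0.023). The call was lost, at an adjusted p of 0.057 to 0.085, without siNTC replicate 2 or any 1 of the siLSD1 arrays, and at 0.065 after quantile normalization. In C42B it read 8.75, 8.86 and 8.83 with siLSD1, against 8.94, 8.89 and 8.88 with siNTC, a difference of -0.09 with a 95% interval of -0.21 to 0.03 (adjusted p = 0.26). With DHT the 4 arrays ranged from 8.55 to 8.89, which overlapped the 8.68 to 8.81 of Veh+, and the interval of the change was -0.20 to 0.13.

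XBP1, the factor made through IRE1, rose with siLSD1 in both lines. In C42B it read 11.20, 11.37 and 11.34 with siLSD1, against 11.02, 11.07 and 10.84 with siNTC, and the groups did not overlap. The change was 0.32 ± 0.08 (limma, adjusted p = 0.027). That call was lost without siLSD1 replicate 2 or 3 or siNTC replicate 1 or 3, at an adjusted p of 0.060 to 0.095. In LNCaP it read 10.33, 10.26 and 10.33 with siLSD1, against 10.08, 10.07 and 10.09 with siNTC, a step of 0.22 ± 0.05 (adjusted p = 0.017). Leaving out siLSD1 replicate 1 or 3 or siNTC replicate 2 ended that call, at 0.051 to 0.066. Averaging in the second, dim probe set gave 0.18 in C42B (adjusted p = 0.052) and 0.09 in LNCaP (adjusted p = 0.29). With DHT it read 11.38, 11.47, 11.23 and 11.59, against 11.40, 11.43, 11.36 and 11.39 with Veh+. The DHT arrays fell on both sides of the vehicle arrays, and the change was 0.02 with an interval of -0.14 to 0.18 (adjusted p = 0.85).

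CREB3L4 had the second largest change of the 8 with DHT. Its DHT arrays read 11.65, 11.69, 11.67 and 11.70, against 10.72, 10.70, 10.79 and 10.67 with Veh+. Replicates lay within 0.12 of each other in both groups and the change was 0.96 ± 0.04 (1.94-fold; limma, adjusted p = 1.6e-07). In C42B it read 11.14, 11.24 and 11.14 with siLSD1, against 10.89, 10.88 and 10.83 with siNTC. The rise of 0.31 ± 0.05 (adjusted p = 0.0074) passed under all 12 alternatives. LNCaP gave 10.84, 10.99 and 10.80 with siLSD1, against 10.46, 10.63 and 10.68 with siNTC, a rise of 0.29 ± 0.08 (adjusted p = 0.030). Without siLSD1 replicate 1 or 2 or siNTC replicate 1 or 2 the adjusted p was 0.057 to 0.11.

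CREB3L2, also called BBF2H7, rose with DHT and, with siLSD1, in LNCaP. It read 10.86, 10.86, 10.79 and 10.79 with DHT, against 10.20, 10.29, 10.20 and 10.25 with Veh+, a change of 0.59 ± 0.04 (1.51-fold; limma, adjusted p = 3.8e-06). With the mean of its probe sets that change was 0.31 and still passed. In LNCaP it read 9.0, 9.0 and 8.97 with siLSD1, against 8.89, 8.69 and 8.73 with siNTC. That step of 0.22 ± 0.07 (adjusted p = 0.040) was lost without any 1 of the siLSD1 arrays or siNTC replicate 2 or 3, at 0.094 to 0.12, and at 0.20 with the mean of its probe sets. The C42B arrays read 10.00, 9.96 and 10.03 with siLSD1, against 9.91, 9.82 and 9.91 with siNTC, a difference of 0.11 with an interval of -0.01 to 0.23 (adjusted p = 0.18).

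CREB3, the founding member of its family, read 10.29, 10.39, 10.27 and 10.21 with DHT, against 10.06, 9.96, 10.02 and 9.90 with Veh+. It rose by 0.31 ± 0.05 (1.24-fold; limma, adjusted p = 0.0016). The siLSD1 and siNTC arrays of C42B overlapped, at 9.83 to 9.93 and 9.87 to 9.93, and the difference was 0.00 with an interval of -0.12 to 0.13. In LNCaP it read 9.36, 9.43 and 9.33 with siLSD1, against 9.27, 9.11 and 9.21 with siNTC. Those groups were apart by 0.18 ± 0.06, which did not pass (adjusted p = 0.079), although it passed with bright genes only (0.042), with the trend and robust setting (0.044) and without siNTC replicate 1 (0.046). CREB3L1, also called OASIS and known from bone and glia, was close to the dim limit. Its group means were 5.99 with DHT, against 5.89 with Veh+, 6.52 with siLSD1, against 6.55 with siNTC in C42B, and 6.72 with siLSD1, against 6.65 with siNTC in LNCaP. Both groups of the DHT experiment were under 6, which was taken as dim, the groups overlapped in every experiment and no comparison passed (adjusted p = 0.34 to 0.90).

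**Figure D2:**
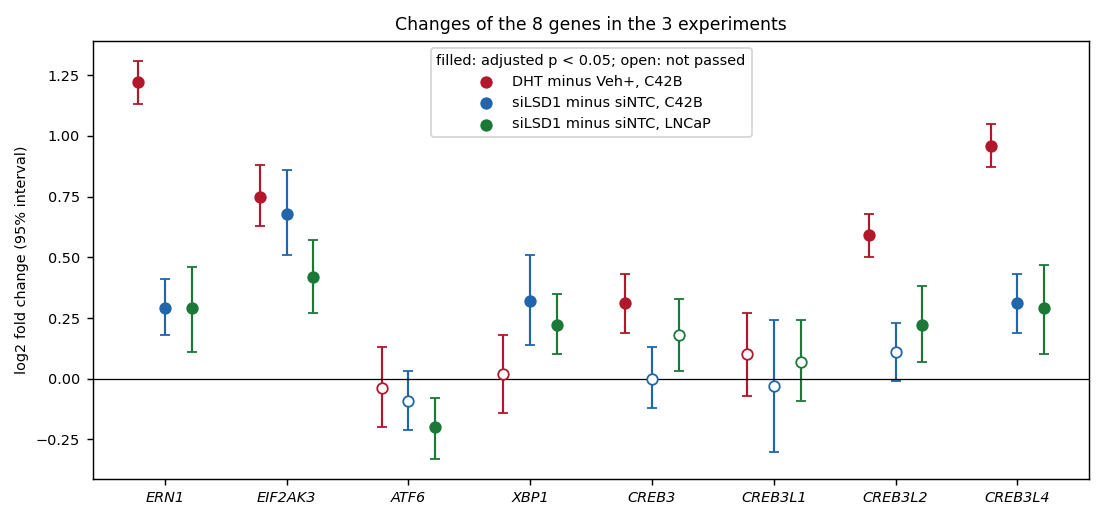
Change of each gene on the log2 scale with its 95% interval, for DHT minus Veh+ in C42B (red) and siLSD1 minus siNTC in C42B (blue) and LNCaP (green); filled points passed at an adjusted p under 0.05. ERN1 and CREB3L4 lie highest with DHT, at 1.22 and 0.96, EIF2AK3 is above 0 in all 3 experiments, and XBP1 is filled only for siLSD1.

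The DHT and siLSD1 effects of C42B differed for 4 of the 8 genes when the difference was itself tested over the 14 C42B arrays, a contrast added after the values had been seen. It was larger with DHT by 0.93 ± 0.06 for ERN1 (limma, adjusted p = 3e-08), by 0.65 ± 0.06 for CREB3L4 (1.7e-06), by 0.48 ± 0.06 for CREB3L2 (2.6e-05) and by 0.30 ± 0.07 for CREB3 (0.0058). Over all genes 14.4% passed higher and 16.0% lower. For EIF2AK3 the difference was 0.07 with an interval of -0.13 to 0.27. XBP1 lay the other way, at -0.30 ± 0.11, and did not pass (adjusted p = 0.052), although it did under 4 other settings and without siLSD1 replicate 1, siNTC replicate 2 or DHT replicate 4, at 0.014 to 0.041. The 2 experiments differ in their time in CSS, plating density and normalization, whose part in the differences cannot be told apart from the treatments.

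Between the lines no siLSD1 effect of the 8 genes differed at the threshold, in the contrast C42B minus LNCaP over the 12 siRNA arrays, where 5.56% of all genes passed higher and 6.07% lower. The largest was EIF2AK3, at 0.26 with an interval of 0.05 to 0.48 (limma, adjusted p = 0.11), and its unadjusted p of 0.021 and that of CREB3, 0.048, were the 2 under 0.05. For ERN1 the difference was 0.01 (interval -0.19 to 0.21) and for CREB3L4 it was 0.02 (-0.19 to 0.23). These intervals bound the differences and do not show that the lines respond alike. Serum and transfection also differed between the lines.

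The additional probe sets, fitted with all 41091 single-gene probe sets, repeated some of these changes and not others. A second probe set of ERN1, 235745_at, read 9.38, 9.36, 9.27 and 9.26 with DHT, against 7.96, 8.09, 8.15 and 8.0 with Veh+. Its rise of 1.27 ± 0.06 was as large as that of the brightest (limma, adjusted p = 2e-07). With siLSD1 in C42B the same probe set read 7.89, 7.85 and 7.88, against 7.85, 7.81 and 7.85 with siNTC, so the groups met at 7.85 and the difference of 0.03 did not pass. In LNCaP it rose by 0.31 ± 0.07 (adjusted p = 0.010), and for it the line difference did pass, at -0.28 ± 0.08 (adjusted p = 0.048). The third, 207061_at, near the dim limit, rose by 0.17 ± 0.06 with DHT (adjusted p = 0.046).

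All 4 probe sets of ATF6 were lower with siLSD1 in LNCaP. The second brightest, 203952_at, read 8.46, 8.42 and 8.33 with siLSD1, against 8.97, 9.01 and 8.99 with siNTC. Its step of -0.59 ± 0.06 (limma, adjusted p = 3.3e-04) was larger than that of the brightest, and it differed between the lines by 0.42 ± 0.09 (adjusted p = 0.012). The others, 217550_at and 231927_at, gave -0.43 and -0.28 (adjusted p = 0.020 and 0.028). None of the 4 passed in C42B. Of all 41091 probe sets, 8992 passed with siLSD1 in LNCaP, 5216 with siLSD1 in C42B and 11091 with DHT, in either direction. For CREB3L2 a second probe set, 228759_at, rose by 0.22 ± 0.05 with DHT (adjusted p = 0.010) and was not called in either siRNA experiment. The other probe sets of EIF2AK3, XBP1 and CREB3L1 and the third of CREB3L2 had means of 4.27 to 5.77, under the dim limit, and none passed. CREB3 and CREB3L4 have 1 probe set each.

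**Figure D3:**
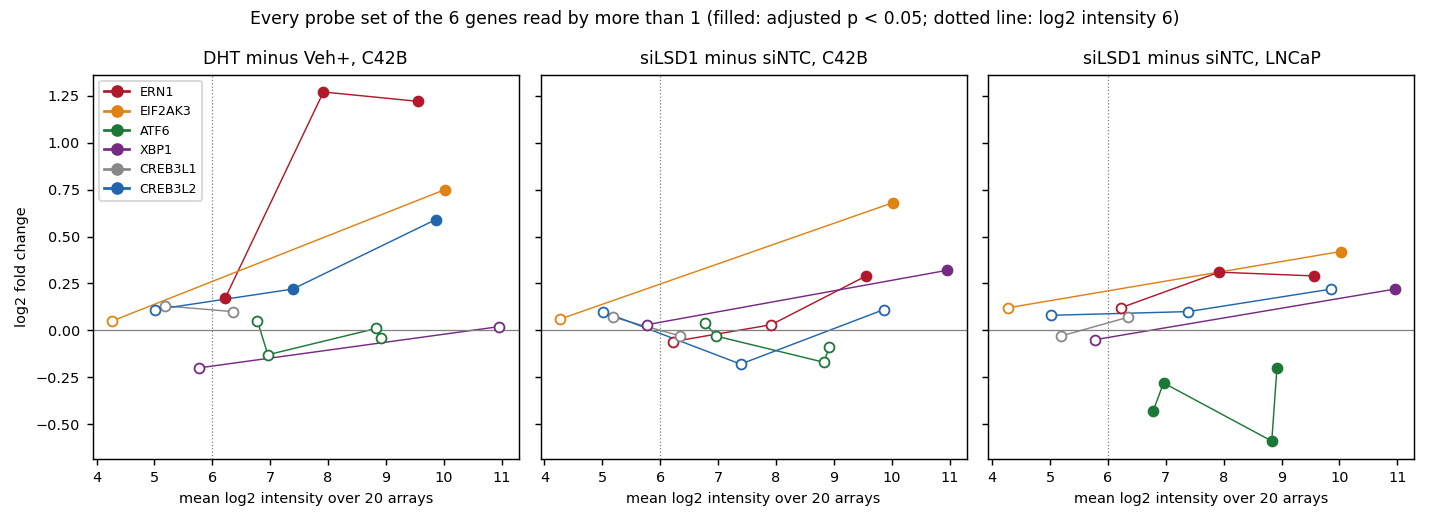
Change on the log2 scale (vertical axis) against mean log2 intensity over the 20 arrays (horizontal axis) for every probe set of the 6 genes read by more than 1, joined within a gene; filled points passed over all 41091 probe sets. The 4 ATF6 probe sets lie at -0.59 to -0.20 in LNCaP, and at this wider adjustment the brightest CREB3L2 probe set is open in LNCaP.

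The targets known for each branch were counted in 5 lists, with each gene placed in 1 list only. Whether a gene answers to more than 1 branch was not tested, so the counts are not readings of separate branches. Of 16 genes of the XBP1 branch, which serve ER-associated degradation, translocation and folding, 16 rose with DHT, although XBP1 mRNA itself did not pass there. Of all genes, 13.4% passed higher with DHT and 19.4% lower. The median of the list was 0.59, against 0.01 for all genes. DNAJB9, an ER co-chaperone, averaged 12.03 with DHT, against 10.39 with Veh+, a change of 1.64 ± 0.04 (limma, adjusted p = 4.3e-09). DNAJC3, which restrains PERK, rose by 1.14 ± 0.05, and SPCS3, a signal peptidase subunit, by 0.96 ± 0.04. With siLSD1 in C42B 11 of the 16 rose, with a median of 0.25, led by SEC11C, the signal peptidase's catalytic subunit, at 0.68 ± 0.06 (adjusted p = 5.1e-04), DNAJC3 at 0.55 and DNAJB9 at 0.51. That count was 6 or 7 without siLSD1 replicate 2 or 3 or any 1 siNTC array. The shares of all genes there were 8.66% higher and 9.39% lower. In LNCaP 7 of 16 rose, with a median of 0.15, among them SEC11C at 0.98 ± 0.06 (adjusted p = 2.2e-05), DNAJB9 at 0.86 and EDEM1, which directs misfolded glycoproteins to degradation, at 0.73. In that experiment 13.4% of all genes passed higher and 12.5% lower. None of the 16 fell in any of the 3 experiments, although 1 fell in LNCaP with the mean of all probe sets.

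Of 12 ER genes of the ATF6 branch, 12 rose with DHT, where 13.4% of all genes passed higher and 19.4% lower. The median of the list was 0.78, while ATF6 mRNA did not pass. MANF, a secreted ER protein, rose by 1.12 ± 0.04, SDF2L1 by 1.08 ± 0.05 and HYOU1, an ER chaperone, by 0.98 ± 0.04 (limma, adjusted p = 8.1e-08, 4.6e-07 and 1.9e-07). With siLSD1 in C42B 5 of 12 rose (41.7%, against 8.66% of all genes). Among them were SEL1L at 0.44, HSP90B1 at 0.39 and HSPA5, the chaperone BiP, at 0.35 ± 0.05 (adjusted p = 0.0052). The count was 2 or 3 without siLSD1 replicate 2 or 3 or siNTC replicate 2. HSP90B1 did not pass without siLSD1 replicate 2 or 3 or siNTC replicate 3. In LNCaP 2 of 12 rose and 1 fell, which is 16.7% and 8.33%, against 13.4% and 12.5% of all genes. The rises were HERPUD1 by 0.51 ± 0.07 and HYOU1 by 0.28 ± 0.06, and PDIA4, a disulfide isomerase, fell by 0.28 ± 0.07 on the log2 scale (adjusted p = 0.018). PDIA4 did not pass without siLSD1 replicate 2 or 3 or siNTC replicate 3, and with the mean of all probe sets 6 rose and none fell. The brightest HSPA5 probe set was at 13.29 with siLSD1 in LNCaP, against 13.17 with siNTC (adjusted p = 0.15).

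The list named the PERK branch holds genes raised by ATF4 and CHOP, a step that other kinases of eIF2 can also favour. Most of it moved opposite to EIF2AK3 with DHT, and the part of PERK in these changes was not tested. Of 16 genes 13 fell (81.2%, against 19.4% of all genes) and 1 rose (6.25%, against 13.4%), with a median of -0.47. CHAC1, which degrades glutathione, averaged 7.21 with DHT, against 8.25 with Veh+, a change of -1.04 ± 0.07 (limma, adjusted p = 3.9e-06). SLC7A11, the cystine transporter, fell by 0.83 ± 0.05 on the log2 scale and PSAT1, an enzyme of serine synthesis, fell by 0.79 ± 0.06. Values for the factors themselves were -0.46 ± 0.04 for ATF4 and -0.43 ± 0.05 for DDIT3, the gene of CHOP (adjusted p = 2.1e-05 and 2.1e-04). The 1 that rose was VLDLR, a lipoprotein receptor, at 0.67 ± 0.04, and these last 3 are named after their values were seen.

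With siLSD1 in C42B 3 of the 16 PERK branch genes fell (18.8%, against 9.39% of all genes) and none rose. They were VLDLR by 0.45, MTHFD2, a mitochondrial folate enzyme, by 0.42 and PHGDH, an enzyme of serine synthesis, by 0.19 on the log2 scale, and the median of the list was -0.01. With 1 array left out PHGDH passed only where that array was siLSD1 replicate 1. With bright genes only, or with the trend and robust setting, 5 fell and 2 rose. In LNCaP 6 fell (37.5%, against 12.5% of all genes) and 2 rose (12.5%, against 13.4%), with a median of -0.06. MTHFD2 was lower there, at -0.96 ± 0.06 (limma, adjusted p = 1.9e-05), while SLC7A11 rose by 0.86 ± 0.07 (7.2e-05). The count of falls was 3 without siNTC replicate 2 or 3 or any 1 siLSD1 array.

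Among 15 genes that cleave, modulate or resemble the sensors, 6 rose and 2 fell with DHT, with a median of 0.03. That is 40.0% higher and 13.3% lower, against 13.4% and 19.4% of all genes. WFS1, an ER membrane protein, rose by 0.67 ± 0.05, DNAJC10, an ER reductase, by 0.66 ± 0.04 and PPP1R15B, which directs dephosphorylation of eIF2, by 0.47 ± 0.08 (limma, adjusted p = 4.2e-06, 2.7e-06 and 0.0010). The falls were EIF2AK1 at -0.27 and EIF2AK4 at -0.16, kinases of eIF2 like PERK, and EIF2AK4 missed the threshold without DHT replicate 1, 2 or 3 or Veh+ replicate 2, 3 or 4. Only 1 gene of the list fell with DHT under the mean of all probe sets or median centring. In C42B 2 rose with siLSD1, DNAJC10 by 0.35 and EIF2AK2, a kinase of the PERK family, by 0.21. RTCB, the ligase that joins cut XBP1 mRNA, fell by 0.17 on the log2 scale. These counts are 13.3% higher and 6.67% lower, against 8.66% and 9.39% of all genes. In LNCaP 3 rose and 4 fell, which is 20% and 26.7%, against 13.4% and 12.5% of all genes. The falls were led by MBTPS1, the site-1 protease, at -0.45 ± 0.06 (adjusted p = 0.0012). EIF2AK1 rose by 0.45 and WFS1 by 0.43. The C42B call of RTCB was lost when any 1 array was left out, with median centring and with the replicate block. That of EIF2AK2 was lost without siLSD1 replicate 2 or 3 or any 1 siNTC array, and with the replicate block. The number of falls in LNCaP was 2 without siLSD1 replicate 2 or 3, without siNTC replicate 2 or 3, or with the mean of probe sets.

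Of 17 secretory genes tied to the CREB3 family, 13 rose and 1 fell with DHT, with a median of 0.32. That is 76.5% higher and 5.88% lower, against 13.4% and 19.4% of all genes. SEC24D, a cargo adaptor of COPII vesicles, averaged 9.68 with DHT, against 8.23 with Veh+, a change of 1.45 ± 0.10 (limma, adjusted p = 3.6e-06). KDELR3, a receptor that returns ER proteins, rose by 0.65 ± 0.04 and SEC24A by 0.55 ± 0.06, and SEC23A, the partner of these adaptors, was the 1 that fell, by 0.35 ± 0.06 on the log2 scale (adjusted p = 0.0012). With siLSD1 6 rose (35.3%, against 8.66% of all genes) and 1 fell (5.88%, against 9.39%) in C42B. The rises included SEC24D at 1.12 ± 0.13, SEC24A at 0.39 and SEC31A, of the COPII outer coat, at 0.38. Their count was 3 without siLSD1 replicate 3. The 1 that fell, GOLGA3 of the Golgi at -0.21, did not pass without siLSD1 replicate 2 or 3 or siNTC replicate 2 or 3. No gene of the list fell in C42B with the mean of all probe sets or with the replicate block. In LNCaP 3 rose (17.6%, against 13.4% of all genes), SEC31A by 0.42, SEC24D by 0.41 and COPE, a COPI subunit, by 0.40. None fell there, but 1 or 2 fell under 8 of the 12 alternatives. With bright genes only or the trend and robust setting 6 or 7 rose and 2 fell, and SEC24D missed the threshold without siLSD1 replicate 3 (adjusted p = 0.053). COL1A1, a matrix target of CREB3L1, did not pass in any experiment, at -0.04 with DHT and -0.13 and 0.08 with siLSD1 in C42B and LNCaP.

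**Figure D4:**
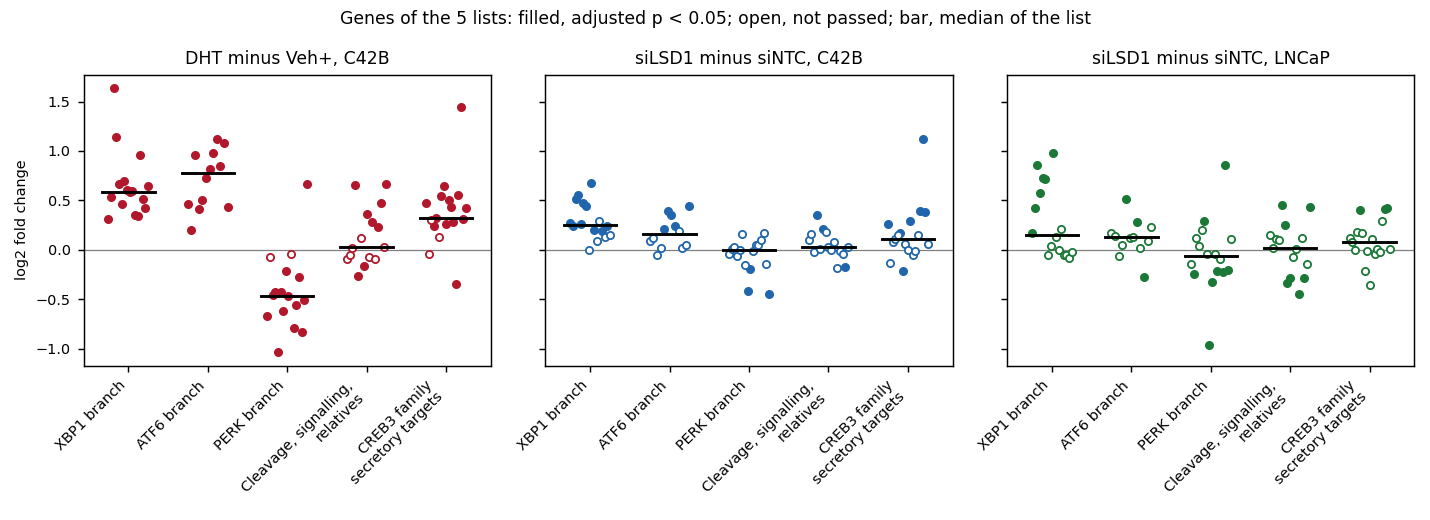
Change on the log2 scale of each measured gene of the 5 lists, by experiment; filled points passed at an adjusted p under 0.05, and bars are list medians. With DHT the bars of the XBP1 and ATF6 branches stand at 0.59 and 0.78 and that of the PERK branch at -0.47.

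To find the genes most like each member, levels were centred within each experiment and correlated over the 20 arrays among 11915 genes that were bright in all 6 groups. The coefficients describe these arrays, which share treatment, line and scaling, and carry no test. ERN1 was most like PRKCH, a protein kinase C (Pearson r = 0.993), TMPRSS2, a prostate serine protease (0.991), and SLC35F2 (0.991). The genes nearest to CREB3L4 were MPC2, a mitochondrial pyruvate carrier (0.987), RAB4A, an endosomal GTPase (0.987), and FAM174B (0.986). CREB3L2 was most like PARVA (0.986), the ER chaperone HYOU1 (0.981) and the Golgi galactosyltransferase B4GALT1 (0.980). For EIF2AK3 they were ASAH1, the acid ceramidase (0.980), SMIM14 (0.979) and DERL1, an ER degradation factor of the XBP1 list (0.976).

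The genes most like XBP1 were LSG1 (0.923), RAP1A (0.920) and ALDH6A1 (0.907). These 3 changed by 0.16 to 0.54 with siLSD1 in C42B and by -0.01 to 0.13 with DHT. CREB3 stood nearest to MAGED1 (0.946), ATG13 (0.944) and WFS1 (0.943). The leading coefficients were lower for ATF6, with PBX3 (0.826), TAF4 and DBF4B (0.825 each), and for CREB3L1, with FAM229A (0.810), MOB3B (0.798) and IGLV1-44 (0.783). Among the members themselves ERN1 and CREB3L4 had the highest r, 0.970, followed by ERN1 and CREB3L2 at 0.968. ERN1 and XBP1 were at 0.301, and ATF6 had a negative r with each of the other 7, from -0.263 with CREB3L1 to -0.578 with XBP1.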

How the data were processed

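The 20 RNA samples were hybridized to arrays of 54675 probe sets. The deposited values are intensities on a linear scale (4.34 to 36333), which per the submitters' processing notes come from RMA in affy (versions and genome build not given in the sources used here). They were turned into log2. Per the platform annotation 41091 probe sets name 1 gene, 1801 several and 11721 none, and 62 are controls. The number of arrays limits the precision.

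Each comparison was fitted on its own arrays in R 4.3.3 with limma 3.58.1 (lmFit, then eBayes), two-sided. The lines were compared over the 12 siRNA arrays. Tables used Python 3.11.15 with pandas 2.3.3. The fit was tested on simulated data. Members and lists were chosen with earlier results of these data known. Up to 3 passing genes with means of at least 6 were named per list and comparison, with the largest changes. ATF4, DDIT3, COL1A1, VLDLR, SEC23A, EIF2AK1 and EIF2AK4 with DHT, GOLGA3 in C42B and HSPA5 in LNCaP were added after their values were seen. SYVN1, TRAF2, ATF1 and KDELR2 of the lists and some of the markers were not analysed here. Promoters came from RefSeq (GRCh38.p14), matched by symbol for 8 of 8 genes. Replicate numbers did not pair the arrays: same-numbered arrays correlated at -0.096 to 0.199 around their group means.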

Additional observations from a re-analysis of the deposited data

Results flagged for a closer look

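Within the siRNA experiments the effect of siLSD1 differed between the lines, by limma's test of the difference over 12 arrays, for 14 of the 76 measured list genes and for 2 additional probe sets of the sensors. Of the 14, 8 were lower and 6 higher in C42B, where 6.07% of all genes passed lower and 5.56% higher. All values are C42B minus LNCaP on the log2 scale. The effect was lower in C42B for SLC7A11 (-0.69), VLDLR (-0.56), EDEM1 (-0.47), EIF2AK1 (-0.44), WFS1 (-0.39), DNAJB9 (-0.35), SEC11C (-0.31) and HERPUD1 (-0.30). It was higher in C42B for SEC24D (0.71), MTHFD2 (0.54), EIF2AK4 (0.52), EIF2S1 (0.32), ATF3 (0.26) and SPCS3 (0.24), of which EIF2S1, ATF3 and SPCS3 were chosen after their values were seen. Of 18 alternatives, HERPUD1 did not pass in 12, DNAJB9 in 10, SEC11C in 5 and SEC24D in 1, all without a change of sign. For EIF2AK4, another kinase of eIF2, the mean of its probe sets gave -0.16 and did not pass. The probe set 203952_at of ATF6 differed by 0.42, and 235745_at of ERN1 by -0.28. Of all 41091 probe sets, 3470 passed for this difference, in either direction. The brightest probe sets of ATF6 and ERN1 gave 0.11 and 0.01 and did not pass. No array of the 8 genes or KDM1A stood apart in the groups of 4.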

How the results depend on the processing

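The DHT calls of ERN1, EIF2AK3, CREB3, CREB3L2 and CREB3L4 passed in the same direction under all 14 alternatives applied to the gene values, and EIF2AK3 under all 12 in each siRNA experiment. Its dim second probe set passed nowhere. The number of genes higher with siLSD1 in C42B was 2 with the mean of all probe sets. In LNCaP it was 3 with that mean and 1 to 5 when 1 array was left out, and the number lower was 0 with quantile normalization, 0 with the replicate block and 0 to 1 when 1 array was left out. ATF6 and CREB3L2 lost their LNCaP calls with the replicate block, both at an adjusted p of 0.053, and no other call among the 8 genes was lost with it. Between the lines 1 gene (ATF6) passed higher with that mean and 1 (EIF2AK3) with the trend and robust setting. For DHT minus siLSD1 the number lower was 1 (XBP1) with the mean, bright genes only, quantile normalization and trend and robust, and 0 to 1 when 1 array was left out. Over all genes siLSD1 in C42B gave 958 to 1975 higher and 949 to 1987 lower when 1 array was left out; both minima were without siLSD1 replicate 3.

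Some changes turned sign, among them XBP1 in LNCaP, which had passed at 0.22, and the line differences of EIF2AK4 (0.52) and EIF2AK3 (0.26). XBP1 in LNCaP and EIF2AK3 between the lines did so only with their next brightest probe sets. Those were dim, at means of 5.77 and 4.27 over the arrays, and did not pass. With the mean of all probe sets CREB3L1 in C42B became 0.02, XBP1 with DHT -0.09, and the line differences -0.15 for ERN1 and -0.16 for EIF2AK4. The next brightest probe sets gave 0.07 (CREB3L1) and -0.18 (CREB3L2) in C42B, 0.01 (ATF6) and -0.20 (XBP1) with DHT, and -0.05 (XBP1) and -0.03 (CREB3L1) in LNCaP. For the line difference they gave -0.28 (ERN1), -0.06 (EIF2AK3) and 0.10 (CREB3L1), and -0.01 for EIF2AK3 in DHT minus siLSD1. Quantile normalization gave -0.01 for XBP1 with DHT and -0.04 for the line differences of ERN1 and CREB3L4. With 1 array left out the ranges were -0.01 to 0.04 (CREB3) and -0.15 to 0.06 (CREB3L1) in C42B, -0.09 to 0.02 (ATF6) and -0.04 to 0.08 (XBP1) with DHT, and -0.05 to 0.05 (ERN1) and -0.03 to 0.08 (CREB3L4) between the lines. The cause of these changes was not tested. Scalings moved the median of all genes by at most 0.033 on the log2 scale.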
